A study of Bos taurus with 14 samples.

Results

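The livers described here are those of the 7 untreated Holstein bull calves (group CON), whose libraries are 7 of the 14 in the series. Their titles name them as controls, and the 7 libraries of calves given a dead-cell preparation of Lactobacillus ingluviei CR37 are not used here. All calves were fed milk replacer at 1.75% of body weight and had starter feed from day 33. The milk replacer was cut to 50% of the earlier amount on day 82, weaning was complete by day 89, and liver was taken after slaughter on day 90. Control calves received the same feeding without the supplement. One poly(A)-selected RNA library was made from each calf, so n = 7 calves throughout, and the calves are numbered 1 to 7 as in their titles. Each library is a piece of whole liver from 1 animal of 1 breed and sex, 1 day after weaning. The labels name no lobe, no time since the last feed and no batch.

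The liver makes most of the proteins of blood plasma, and hepatocytes give much of their messenger RNA to a small set of secreted proteins. It also turns ammonia into urea, makes bile acids and clears foreign compounds. In a ruminant, microbes in the rumen ferment most dietary carbohydrate to short-chain fatty acids, so the liver makes glucose, largely from propionate, rather than taking it up. A calf passes from the glucose supply of milk to this state around weaning.

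The values are transcript abundances in TPM, which the authors computed per transcript and which were summed per gene. TPM is scaled for transcript length, so levels can be compared between genes, and it has the same total in each library, so a rise in a few very abundant genes lowers all others. The read depth of each library is unknown. Of 17469 genes, 12089 had a mean of at least 1 TPM over the 7 calves, 5825 of at least 10 TPM, 1015 of at least 100 TPM and 169 of at least 1000 TPM. Between 15406 and 15781 genes were above 0 in a library, and 343 were listed at 0 in all 7.

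The tissue label was checked against markers. All 10 hepatocyte markers had a mean of at least 10 TPM, from ALB, serum albumin, at 48228 ± 10842 TPM (SD, n = 7) to HNF4A, a transcription factor of hepatocytes, at 128 ± 20.7 TPM, and together they held 5.43% to 9.49% of TPM. Kupffer cells, the macrophages of the liver, were marked by 14 genes with 0.194% to 0.854% of TPM. The 19 T and NK cell markers held 0.00878% to 0.0748%, the 12 endothelial markers 0.0257% to 0.0585%, the 13 stellate cell and fibroblast markers 0.0310% to 0.0465% and the 10 bile duct markers 0.00159% to 0.00903%. Among the muscle genes, MYH2, MYH7 and ACTA1 reached at most 0.03, 0.02 and 0.230 TPM in any calf, and ADIPOQ, which marks fat cells, at most 0.04 TPM. Of the 5 fat cell markers found, 4 had a mean of at least 1 TPM and none of at least 10 TPM. Of the genes of pancreas, the trypsinogens PRSS1 and PRSS2 ranged from 0.810 to 15.4 TPM and from 0 to 16.6 TPM, and AMY2B, an amylase that liver also expresses, from 145 TPM in calf 5 to 361 TPM in calf 7. Of the 11 genes found on the list of pancreas, gut and muscle, 6 had a mean of at least 1 TPM. Of these, 2 reached 10 TPM, AMY2B and a steady gene not reported here. Together the 11 held 0.0178% to 0.0393% of TPM. In bulk tissue, fewer cells of a type and less RNA per cell cannot be told apart.

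Calf 2 was the least like the other calves by correlation. Its median correlation with the other libraries, over log2(TPM + 1) of genes with a mean of at least 1 TPM, was 0.953, against 0.965 to 0.977 for the others. The T and NK cell markers held 0.0748% of its TPM, and the Kupffer cell markers 0.854%. Most results that turn on this library are given with and without it. The counts of variable genes that lie beside each other are given with it only. The libraries also differed in how concentrated they were: in calf 4, 69 genes made up 50% of TPM, while in calf 1 it took 114. On the scale of median ratios, in which the typical gene is set equal in all libraries, the log2 factor between the scales was 0.27 in calf 1, 0.16 in calf 2, -0.16 in calf 5, -0.14 in calf 6 and nearer to 0 in the others. In TPM, the typical gene thus lay that far above or below its level elsewhere, and differences between calves of that size depend on the scale.

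ALB, the main carrier protein of plasma, was the most abundant gene in these livers. It ranged from 32053 TPM in calf 5 to 64996 TPM in calf 7, with a median of 50853 TPM, and made up 4.82% ± 1.08 of TPM (SD, n = 7). The 5 most abundant genes held 12.4% ± 1.02 of TPM, the 20 most abundant 26.5% ± 2.32, and the 100 most abundant 50.8% ± 2.66. For the leading 20 the share ran from 23.3% in calf 1 to 30.6% in calf 4. Of those 20 genes, 17 encode proteins on the lists of secreted plasma proteins. The other 3 were MT1A, a metallothionein that binds zinc and copper, and 2 genes that the annotation names by number, LOC613358 and LOC511240. Among the leading 100 there were 43 genes of the secreted protein lists, 28 proteins of the cytosolic ribosome and 8 genes of the enzyme lists. Genes outside the lists, such as ANG and RNASE4, were not counted as secreted.

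**Figure D1:**
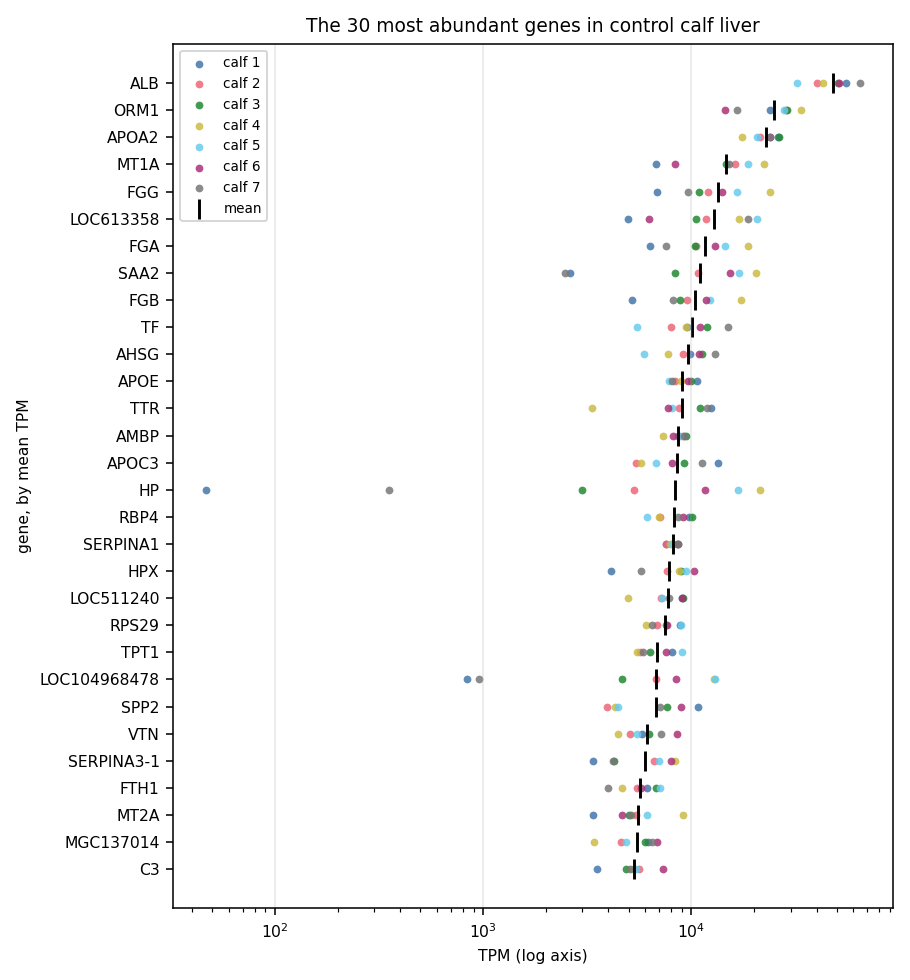
TPM (log axis) of the 30 genes of highest mean in the 7 control livers. Coloured points are single calves and the black tick is the mean of 7. ALB lies apart at the top with a mean of 48228 TPM, the points of SERPINA1 and AMBP nearly coincide, and those of HP spread from 46.6 to 21479.7 TPM.

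After ALB came ORM1, which encodes the plasma glycoprotein alpha-1-acid glycoprotein. It ranged from 14568 TPM in calf 6 to 33599 TPM in calf 4, with a median of 28006 TPM. APOA2, an apolipoprotein of high-density lipoprotein, ranged more narrowly, from 17534 TPM in calf 4 to 26406 TPM in calf 3, with a median of 23876 TPM. MT1A ranged from 6795 TPM in calf 1 to 22392 TPM in calf 4, with a median of 15206 TPM. The 3 chains of fibrinogen, the precursor of the fibrin clot, ranked among the leading 9 genes, with FGG at 13420.3 ± 5549 TPM, FGA at 11594 ± 4237 TPM and FGB at 10452 ± 3868 TPM. SAA2, a serum amyloid A, was at 11013 ± 7021 TPM. TF, the iron carrier transferrin, completed the leading 10 at 10065 ± 3030.4 TPM. Lower among the leading 30 were HPX, the haem carrier hemopexin, at 7849 ± 2207 TPM, SPP2, a secreted phosphoprotein, at 6733 ± 2607 TPM, TPT1, a growth-related translation protein, at 6871 ± 1377 TPM and MT2A, another metallothionein, at 5549.9 ± 1791 TPM. MGC137014, which lies near LOC511240 on chromosome 5, was at 5477 ± 1229 TPM. LOC613358, for which RefSeq gives the synonym MT1E, ranged from 4969 TPM in calf 1 to 20758 TPM in calf 5, with a median of 11760.4 TPM. Genes with near-identical copies, among them the metallothioneins, the serum amyloids, the SERPINA3 family and the class I major histocompatibility genes, share reads, so the division of TPM within each of those families is uncertain.

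Secreted plasma proteins, 141 genes on 7 lists, together held 36.1% ± 2.84 of TPM (SD, n = 7), from 32.7% in calf 2 to 40.1% in calf 4. Carrier proteins took the largest part, 9.22% ± 1.72, with ALB alone at 4.82%. TTR, which carries thyroid hormone and retinol-binding protein, ranged from 3322 TPM in calf 4 to 12403 TPM in calf 1, with a median of 8685 TPM, and in calf 4 it was well under the 7715 TPM of the next lowest calf. RBP4, its retinol-carrying partner, ranged from 6142 TPM in calf 5 to 10070.2 TPM in calf 3. SERPINA6, the plasma carrier of cortisol, was far less abundant but more spread, from 2.45 TPM in calf 4 to 53.3 TPM in calf 7, with a median of 22.2 TPM. TCN2, a carrier of vitamin B12, was closest to even among the carriers, at 219 ± 29.1 TPM. Without calf 4 the highest-to-lowest ratio of TTR (on TPM + 1, as for every ratio here) was 1.61 in place of 3.73.

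Acute phase proteins and plasma glycoproteins held 7.32% ± 1.58 of TPM and differed in share from 5.62% in calf 7 to 10.1% in calf 4. AHSG, fetuin-A, which keeps calcium phosphate in solution, was at 9683 ± 2346 TPM. CRP, which is not a strong acute phase reactant in cattle, was the most even of the list, at 578 ± 106 TPM. Protease inhibitors held 4.20% ± 0.554. SERPINA1, the inhibitor of neutrophil elastase, was at 8144 ± 480.0 TPM, and AMBP, the precursor of alpha-1-microglobulin and bikunin, at 8668 ± 737 TPM. Both lay within a ratio of 1.29 between the highest and the lowest calf. SERPINA3-1 and SERPINA3-7, members of a family that is expanded in cattle, were at 5980.0 ± 1999 TPM and 4932 ± 1887 TPM.

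Coagulation and fibrinolysis factors held 5.79% ± 1.51 of TPM, most of it fibrinogen. VTN, vitronectin, an adhesive plasma protein, was at 6119 ± 1369 TPM. PROS1, the anticoagulant protein S, ranged only from 373 TPM in calf 1 to 451 TPM in calf 6. Complement and soluble pattern recognition proteins held 2.45% ± 0.270. C3, the central complement component, was at 5293 ± 1129 TPM, and CFB, the alternative pathway protease that cleaves it, at 2953 ± 570.5 TPM. C1S and C1R, the proteases of the first component, had almost the same level, 1951 ± 206 TPM and 1949.6 ± 199 TPM, with calf 7 highest in both. Their partner genes C1QA, C1QB and C1QC, which macrophages express, are described with the immune genes.

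Apolipoproteins and lipoprotein enzymes held 6.0% ± 0.991 of TPM, from 4.89% in calf 2 to 7.28% in calf 1. APOE, a ligand for lipoprotein receptors, was steady at 9046 ± 1049.8 TPM. APOC3, which slows the clearance of triglyceride-rich particles, ranged from 5435 TPM in calf 2 to 13417 TPM in calf 1, with a median of 8109 TPM. APOH was at 4746 ± 1108 TPM. Among hormones and their binding proteins, 1.08% ± 0.0694 of TPM in all, RARRES2, the adipokine chemerin, was at 3216 ± 366 TPM, IGFBP2 at 1775 ± 404 TPM, LEAP2, an antimicrobial peptide and ghrelin receptor antagonist, at 1106 ± 225 TPM, and IGFBP4 at 1029 ± 122 TPM. IGF2 was at 528 ± 88.6 TPM, while IGF1, the growth factor that growth hormone induces in liver, was at 7.59 ± 4.15 TPM. IGF1 ranged from 2.43 TPM in calf 6 to 15.1 TPM in calf 1, and the level of IGFALS, the subunit that holds it in plasma, ran from 1.41 TPM in calf 4 to 19.5 TPM in calf 1. The foetal plasma protein AFP had a mean of 0.174 TPM.

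The enzyme lists, 280 genes, held 6.93% ± 0.760 of TPM (SD, n = 7). It was lowest in calf 2, at 5.89%, and highest in calf 7, at 7.94%. Glucose production was strongly represented. PCK1, the cytosolic phosphoenolpyruvate carboxykinase of gluconeogenesis, was at 1559.9 ± 205 TPM. PC, pyruvate carboxylase, was at 292 ± 148 TPM, FBP1, fructose-1,6-bisphosphatase, at 616 ± 197 TPM, and G6PC1, which releases free glucose, at 252 ± 94.9 TPM. LDHB, one lactate dehydrogenase subunit, was at 785 ± 157 TPM. The other, LDHA, ranged from 58.9 TPM in calf 5 to 385 TPM in calf 7, with a median of 162 TPM.

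**Figure D2:**
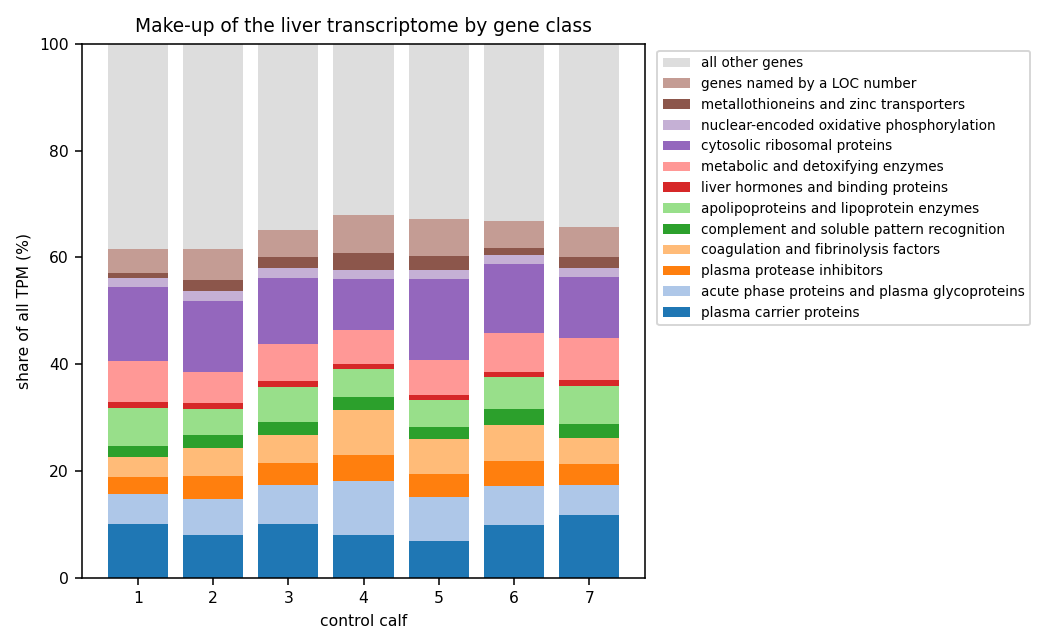
Share of all TPM (%) in each gene class for the 7 control livers, every gene counted once. The 7 secreted classes are at the foot of each bar. Together they reach 32.7% in calf 2 and 40.1% in calf 4, while ribosomal proteins take 9.68% in calf 4 and at most 15.1% in another calf.

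Propionate enters glucose synthesis through propionyl-CoA carboxylase and methylmalonyl-CoA mutase. The subunits PCCA and PCCB were at 62.9 ± 8.39 TPM and 91.2 ± 15.9 TPM, the epimerase MCEE at 84.9 ± 16.8 TPM, and the mutase MMUT at 192 ± 48.4 TPM. None of the 12 genes of that list with a mean of at least 10 TPM was variable (at least a 3-fold range between calves, as 10.1% of all genes were) and 4 were steady (under a 1.5-fold range, as 35.1% of all genes were). With median-ratio scaling none was steady. ACSM1, a medium-chain acyl-CoA synthetase, led the list at 535 ± 74.0 TPM. The acetyl-CoA synthetases ACSS1 and ACSS2, which activate acetate, were at 5.56 TPM and 4.52 TPM. All 11 genes for the urea cycle and ammonia were above 10 TPM, led by ASS1, argininosuccinate synthase, at 1284 ± 373 TPM. ARG1, arginase, was at 748 ± 108 TPM, CPS1, the first enzyme of the cycle, at 568 ± 166 TPM, ASL at 489.9 ± 116 TPM and OTC at 108 ± 18.6 TPM.

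Of the enzymes of amino acid breakdown, HPD, which degrades tyrosine, was at 1685 ± 357 TPM, and AHCY, of the methionine cycle, at 1564 ± 275 TPM. BHMT, which remethylates homocysteine from betaine, ranged from 755 TPM in calf 1 to 1934 TPM in calf 7, with a median of 1050.0 TPM. Fatty acid oxidation was led by ECHS1, enoyl-CoA hydratase, at 881 ± 95.5 TPM. BDH1, the mitochondrial enzyme that reduces acetoacetate to 3-hydroxybutyrate, had a mean of 0.0929 TPM. Fatty acid synthesis was low in every calf. FASN, fatty acid synthase, had a mean of 2.83 TPM, ACACA, acetyl-CoA carboxylase, 2.47 TPM, ACLY, ATP-citrate lyase, 7.05 TPM, SCD, the delta-9 desaturase, 1.02 TPM, and ME1, malic enzyme, 0.490 TPM. In ruminants, adipose tissue rather than liver is known as the main site of this pathway. Genes that esterify or export fat were higher, with ACSL5 at 160.5 ± 41.9 TPM, AGPAT2 at 83.9 ± 26.1 TPM and MTTP, which loads lipid onto apolipoprotein B, at 54.6 ± 18.2 TPM.

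The list of phase I enzymes, most of them cytochromes P450, held 1.69% ± 0.278 of TPM, led by CYP2E1 at 1888 ± 459 TPM, CYP3A76 at 1762 ± 572 TPM, CYP2C23 at 1439 ± 405 TPM and CYP1A2 at 1136 ± 368 TPM. ALDH2, mitochondrial aldehyde dehydrogenase, was steady at 797 ± 72.5 TPM. The leading conjugating enzyme was GSTA1, a glutathione transferase, which ranged from 915 TPM in calf 7 to 3946 TPM in calf 5, with a median of 2067 TPM. CAT, catalase, was the most abundant gene of the enzyme lists, at 2784 ± 574 TPM, and SOD1, copper-zinc superoxide dismutase, was at 1591 ± 336 TPM. Bile acid genes were led by SCP2, a peroxisomal thiolase and sterol carrier, at 524 ± 83.1 TPM. The bile acid importers SLCO1B3 and SLC10A1 were at 391 ± 77.5 TPM and 332 ± 101 TPM.

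Outside these lists, the 78 ribosomal protein genes held 12.7% ± 1.75 of TPM, from 9.68% in calf 4 to 15.1% in calf 5. RPS29 was at 7498 ± 1111 TPM. The 73 nuclear genes of oxidative phosphorylation held 1.72% ± 0.0845. The ferritin genes FTH1 and FTL, which store iron, were at 5697 ± 1118 TPM and 5245 ± 1521 TPM. Genes named by a LOC number held 5.69% ± 1.03 of TPM. Among them LOC104968478, which lies beside SAA2 on chromosome 29, ranged from 838 TPM in calf 1 to 12963 TPM in calf 5, with a median of 6778 TPM.

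The spread between calves was measured by the ratio of the highest to the lowest of the 7 values, after adding 1 TPM to each. Over the 5825 genes with a mean of at least 10 TPM its median was 1.62, the median coefficient of variation was 18.2%, and the median SD of log2(TPM + 1) was 0.25. A gene was called steady where the ratio was under 1.5 and variable where it was at least 3. By that rule 2043 genes, 35.1%, were steady and 589 genes, 10.1%, were variable. These calls describe the spread and are not a test. With median-ratio scaling 2364 genes were steady and 561 variable, and 1493 steady and 494 variable genes were called on both scales. Abundant genes were steady less often: 28 of the 169 genes with a mean of at least 1000 TPM (16.6%) were steady and 27 (16%) variable, against 34.2% and 9.24% of the 3202 genes between 10 and 30 TPM. Among ALB, ORM1, APOA2 and MT1A, the 4 leading genes, the ratio ran from 1.51 to 3.29, and without calf 1 that of MT1A was 2.68.

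**Figure D3:**
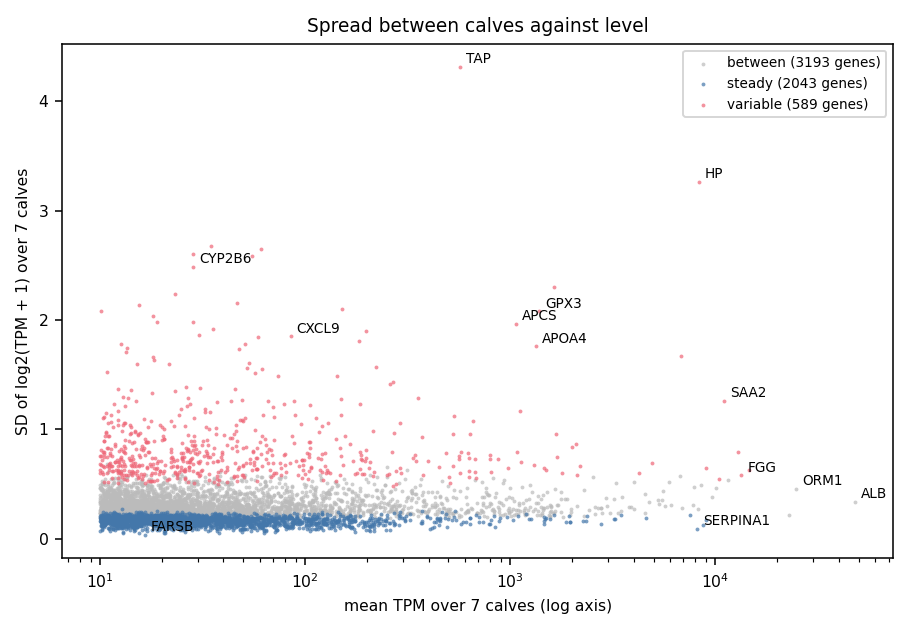
Spread of each gene between the 7 calves (SD of log2(TPM + 1)) against its mean TPM (log axis), for the 5825 genes with a mean of at least 10 TPM. Blue points are the 2043 steady genes, red points the 589 variable genes and grey points the rest. TAP and HP lie far above the other genes, and SERPINA1, among the leading 20 genes by level, lies near the floor of the cloud.

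Of the 15 steadiest genes, 7 are described first. FARSB, a subunit of phenylalanyl-tRNA synthetase, stayed at 16.1 to 17.2 TPM, an SD of 0.03 on the log2 scale. GOSR2, a SNARE of Golgi transport, stayed at 19.6 to 21.9 TPM, and MTX2, of the mitochondrial outer membrane import machinery, at 19.6 to 21.5 TPM. PSMB3 and PSMB5, subunits of the 20S proteasome, stayed at 168 to 190.2 TPM and at 66.8 to 75.6 TPM. POLR2E, a subunit shared by the nuclear RNA polymerases, stayed at 60.7 to 69.0 TPM, and PARK7, a redox-sensitive chaperone, at 199 to 227 TPM. The other 8 of the 15 steadiest genes, SNX25, BZW1, MESD, ASCC2, GLT8D1, JTB, WDR41 and LRBA, had SDs of 0.05 to 0.07.

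By list, 27 of 31 proteasome subunits and 51 of 73 oxidative phosphorylation genes were steady, against 35.1% of all genes, and none of either list was variable. With median-ratio scaling it was 23 of 31 and 32 of 73, against 2364 of all 5803 genes. On that scale the oxidative phosphorylation share was near that of all genes. NDUFB11, of complex I, stayed at 182 to 218 TPM, and ATP5MG, of ATP synthase, at 756 to 940.4 TPM. The widest spread of that list was that of ATP5F1B, the beta subunit of ATP synthase, which ranged from 255 TPM in calf 5 to 529.8 TPM in calf 7. Of 78 ribosomal protein genes 15 were steady and none variable. With median-ratio scaling 4 were steady. The level of a list is given here as the mean over its genes of log2(TPM + 1), taken relative to each gene's mean over the calves. For the ribosomal proteins it ran from 0.27 in calf 5 to -0.40 in calf 4, and these calves were at the ends on both scales. No acute phase gene out of 19 and no interferon-stimulated gene out of 21 was steady on either scale.

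Steady genes were also found among the secreted proteins, but in each list less often than the 35.1% of all genes. They were 7 of 25 complement genes, 5 of 22 coagulation factors, 5 of 16 protease inhibitors and 3 of 16 hormones and binding proteins. They were 2 of 17 apolipoprotein genes, 0 of 12 carriers and 0 of 19 acute phase genes. With median-ratio scaling at most 1 gene of each of these lists was steady, against 2364 of all 5803 genes. SERPINA1 had a ratio of 1.14 at a mean of 8144 TPM, PROS1 of 1.21, MASP1, a protease of the lectin complement pathway, of 1.24, and APOE of 1.36. With median-ratio scaling APOE was still steady, while the ratios of SERPINA1, PROS1 and MASP1 were 1.52, 1.60 and 1.61. Of the 25 genes with a mean of at least 10 TPM that are often used as references in quantitative PCR, 9 were steady, a share near the 35.1% of all genes. GAPDH had a ratio of 1.47, PPIA of 1.46, HPRT1 of 1.44 and RPS18 of 1.497. With median-ratio scaling 3 of the 25 were steady, and the ratios of these 4 were 1.54, 1.51, 1.60 and 1.64. ACTB had a ratio of 2.98, from 545 TPM in calf 4 to 1629 TPM in calf 2, and without calf 2 its ratio was 1.70. B2M, the light chain of class I histocompatibility molecules, and TFRC, the transferrin receptor, were variable, with ratios of 3.5 and 3.47. B2M had its highest value in calf 2, and without that calf its ratio was 1.87. For TFRC the ratio was 2.26 without calf 6.

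Calf 2 was the highest in 281 of the 589, or 47.7%, against 27.3% of all genes with a mean of at least 10 TPM. Calf 6 was lowest in 153 variable genes, 26.0%, against 20.1% of all, and calf 5 in 148, 25.1%, against 24.6% of all. Calves 1 and 7 were together the 2 lowest in 52 variable genes, 8.83%, against 3.06% of all genes. Leaving out 1 calf at a time, the number of variable genes was 371 without calf 2 and between 504 and 582 without any other. Of the 589, 193 stayed variable whichever calf was left out. A single calf lay apart from the other 6 by Dixon's criterion, on the log2 scale, in 43 of the 589, or 7.30%, against 5.42% of all genes, and in 19 of the 43 it was calf 2.

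**Figure D4:**
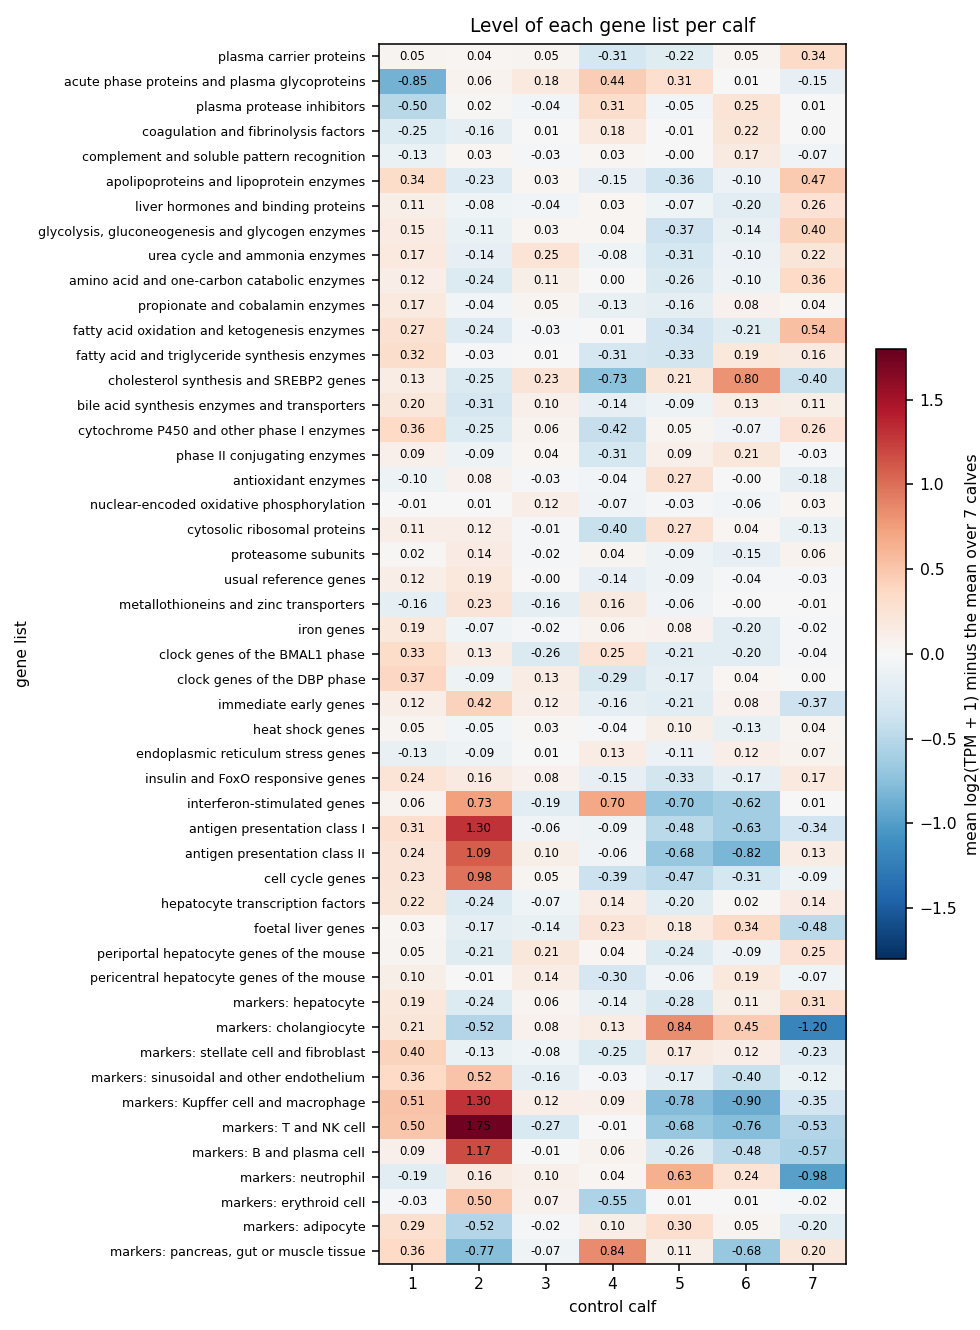
Level of each gene list (rows) in each control calf (columns), as the mean over its genes of log2(TPM + 1) minus the gene's mean over the 7 calves. Red is above and blue below the mean. The lists of T and NK cell, Kupffer cell, class I and class II genes are highest in calf 2, the acute phase list is lowest in calf 1, the cholesterol list is highest in calf 6, and the fatty acid oxidation list is highest in calf 7.

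HP, haptoglobin, which binds free haemoglobin and is the main acute phase protein of cattle, had the widest spread of the 169 genes with a mean of at least 1000 TPM, by the SD of log2(TPM + 1). It ranged from 46.6 TPM in calf 1 to 21479.7 TPM in calf 4, with a median of 5311 TPM. In calf 7 it was at 351 TPM, and in calves 3, 2, 6, 5 and 4, in rising order, it was between 2982 and 21479.7 TPM. Without calf 1 the ratio was still 61.0. SAA2 was lowest in calf 7, at 2486 TPM, and almost the same in calf 1, at 2603 TPM, while the other calves lay between 8328 and 20509 TPM. SAA3, another serum amyloid A, ranged from 11.7 TPM in calf 1 to 542 TPM in calf 5, with a median of 209 TPM. GPX3, the secreted glutathione peroxidase, had all 7 calves in the same order as HP, from 72.0 TPM in calf 1 to 3633 TPM in calf 4, with a median of 1532 TPM. LOC104968478 was also lowest in calves 1 and 7. Leaving out the calf that mattered most, the ratios were 6.85 for SAA2, 14.2 without calf 1 for SAA3 and 21.3 without calf 1 for GPX3.

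Of 19 acute phase genes, 9 were variable, against 10.1% of all genes. The level of the list ran from 0.44 in calf 4 to -0.85 in calf 1. LBP, which binds bacterial lipopolysaccharide, ranged from 135 TPM in calf 1 to 721 TPM in calf 4, with a median of 277 TPM, and ITIH4, an inter-alpha-trypsin inhibitor heavy chain, from 949 TPM in calf 1 to 3398 TPM in calf 4. Fibrinogen had a smaller spread in the same direction: FGG was lowest in calf 1, at 6819.7 TPM, next in calf 7, at 9686 TPM, and highest in calf 4, at 23822 TPM. SERPINA3-3 ranged from 585 TPM in calf 1 to 4542 TPM in calf 4, with a median of 1783 TPM. ORM1 did not share that order, since its 2 lowest values were those of calf 6 and calf 7, and calf 1 was at 23926 TPM. APCS, serum amyloid P, had another order again, from 42.7 TPM in calf 6 to 2764 TPM in calf 7, with a median of 937 TPM. Leaving out the calf that mattered most, the ratios were 6.46 without calf 6 for APCS, 3.02 without calf 1 for LBP, 1.99 without calf 1 for ITIH4, 2.58 without calf 1 for SERPINA3-3, 2.44 without calf 4 for FGG and 2.13 without calf 1 for FGB, so the calls of the last 4 each rested on 1 calf.

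The order of the calves was the same in several of these genes. In rising order of HP it was calf 1, 7, 3, 2, 6, 5 and 4. Of the 5825 genes with a mean of at least 10 TPM, 8 (0.137%, HP included) had exactly this order, and 4 had its reverse. The 8 were HP, FGG, FGA and FGB, SERPINA3, GPX3, LBP and CFHR5, a complement factor H-related protein. Of the 127 genes of the secreted protein lists with a mean of at least 10 TPM, 6 (4.72%) had this order. GPX3, a secreted protein too, is on the list of antioxidant enzymes. In TPM, FGA ranged from 6324 TPM in calf 1 to 18705 TPM in calf 4, SERPINA3 from 635 TPM in calf 1 to 3112 TPM in calf 4 and CFHR5 from 150.0 TPM in calf 1 to 322 TPM in calf 4. With median-ratio scaling 7 genes had the order of HP, and GPX3 was the single other gene that had it on both scales. SAA2 was among the genes that joined, and the fibrinogen genes, LBP, SERPINA3 and CFHR5 were among those that did not keep it. GPX3, SERPINA3 and CFHR5 were picked here because of this order, which was looked for after the values of HP and GPX3 had been seen.

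Several of the most variable genes were highest in calf 6, and low in calves 1 and 7. TAP, tracheal antimicrobial peptide, a beta-defensin of cattle, was at 3686 TPM in calf 6, 252 TPM in calf 5, 27.0, 14.1 and 4.25 TPM in calves 2, 4 and 3, and listed at 0 in calves 1 and 7. LAP, lingual antimicrobial peptide, another beta-defensin, was at 182 TPM in calf 6, 12.5 TPM in calf 5 and at most 1.73 TPM elsewhere. The mean of LAP, 28.4 TPM, reached the limit of 10 TPM only through calf 6. Without calf 6 its SD of log2(TPM + 1) was 1.27 in place of 2.60. That of TAP was 3.07 in place of 4.31. Both genes lie on chromosome 27, and how far shared reads tie their values together was not tested. CHI3L2, a chitinase-like protein, was at 173 and 169 TPM in calves 5 and 6 and at 0.930 TPM in calf 7. PIGR, the receptor that carries IgA into bile, ranged from 11.1 TPM in calf 7 to 190.1 TPM in calf 6, with a median of 33.1 TPM, and CAPN8, a calpain known from the stomach lining, from 1.00 TPM in calf 7 to 47.8 TPM in calf 6, with a median of 16.3 TPM. ECEL1, an endothelin-converting-enzyme-like peptidase, was also highest in calf 6 and ranged from 0.0800 TPM in calf 7 to 111 TPM in calf 6, with a median of 30.5 TPM, while calf 5 was at 11.1 TPM. PDZK1IP1, an epithelial membrane protein, was highest in calf 4, at 95.9 TPM, and lowest in calf 7, at 0.880 TPM.

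The level of the bile duct marker list ran from 0.84 in calf 5 to -1.20 in calf 7, and was 0.45 in calf 6 and 0.21 in calf 1. Of its 10 genes, 5 had a mean of at least 1 TPM. CLDN4, a tight junction protein, ranged from 6.46 TPM in calf 7 to 49.8 TPM in calf 6, with a median of 22.6 TPM, EPCAM, an epithelial adhesion protein, from 2.88 TPM in calf 7 to 26.0 TPM in calf 5, and SPP1, osteopontin, from 1.38 TPM in calf 7 to 15.9 TPM in calf 3. KRT19 and KRT7, keratins of the ducts, were at 4.91 TPM and 3.89 TPM. SOX9, CFTR, CLDN10 and KRT23 were all under a mean of 1 TPM. The list of neutrophil markers was also highest in calf 5, at 0.63, and lowest in calf 7, at -0.98. Of its 12 genes found, 6 had a mean of at least 1 TPM. In share of TPM the 12 held 0.0236% in calf 5 and nearly as much, 0.0232%, in calf 2. S100A9, a calcium-binding protein of neutrophils, was at 37.4 TPM in calf 5 and 3.82 TPM in calf 7. The part of such cells in the levels of TAP, LAP and the other genes above was not tested.

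**Figure D5:**
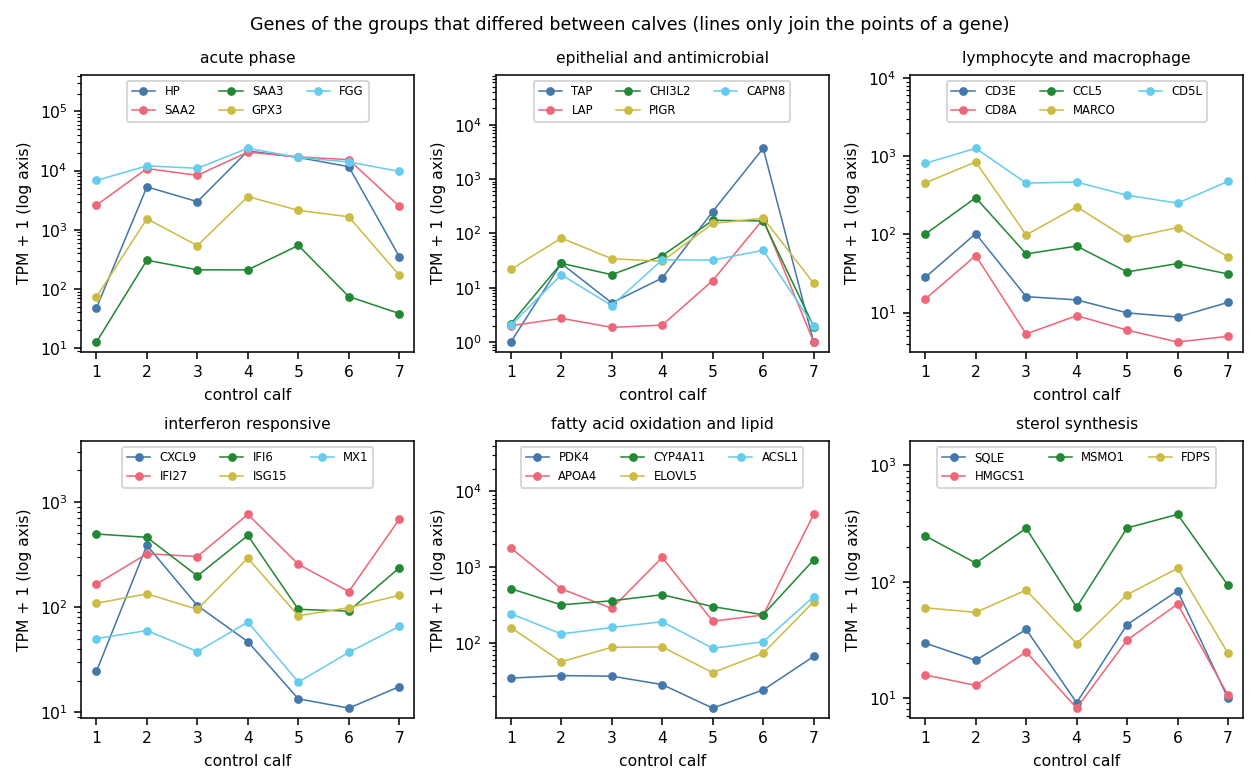
TPM + 1 (log axis) of 4 or 5 genes from each of 6 groups in the 7 control calves, 1 colour per gene. The acute phase genes dip in calves 1 and 7, TAP and LAP peak in calf 6, the lymphocyte and macrophage genes peak in calf 2, PDK4 and APOA4 peak in calf 7, and the sterol genes are highest in calf 6.

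The lists of T and NK cell, Kupffer cell and B and plasma cell markers were highest in calf 2, while that of neutrophil markers was highest in calf 5. Of the T and NK cell markers, 5 had a mean of at least 10 TPM and all of those were variable, against 10.1% of all genes. CD3E, a chain of the T cell receptor complex, was at 101 TPM in calf 2, 27.2 TPM in calf 1 and at most 15.0 TPM elsewhere. CD8A, of cytotoxic T cells, was at 52.6 TPM in calf 2 and at most 13.9 TPM in the others. CCL5, a chemokine of T and NK cells, ranged from 30.2 TPM in calf 7 to 294 TPM in calf 2, with a median of 55.3 TPM. NKG7, of cytotoxic granules, ranged from 7.96 TPM in calf 5 to 50.7 TPM in calf 2, and CD3G from 3.81 TPM in calf 6 to 45.0 TPM in calf 2. Without calf 2, 3 of these genes had a mean of at least 10 TPM, and those 3 were variable, against 371 of all 5705 genes. The level of the list was 1.75 in calf 2, 0.50 in calf 1 and -0.76 in calf 6. Without calf 2 the ratios were 3.22 for CD3E, 3.54 for CD8A, 3.23 for CCL5, 3.11 for NKG7 and 2.56 for CD3G.

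All 13 Kupffer cell markers with a mean of at least 10 TPM were variable, against 10.1% of all genes. The level of the list ran from 1.298 in calf 2 to -0.90 in calf 6. C1QA, C1QB and C1QC, the chains of complement C1q, ranged from 589 TPM in calf 6 to 2326 TPM in calf 2, from 406 TPM in calf 6 to 1754 TPM in calf 2 and from 405 TPM in calf 5 to 1534 TPM in calf 2. CD5L, a macrophage secretory protein, ranged from 250.4 TPM in calf 6 to 1265 TPM in calf 2, with a median of 467 TPM, and MARCO, a scavenger receptor, from 50.5 TPM in calf 7 to 846 TPM in calf 2, with a median of 122 TPM. CLEC4F, a lectin of Kupffer cells in mice, ranged from 1.21 TPM in calf 6 to 50.5 TPM in calf 2, with a median of 19 TPM. CD74, the class II invariant chain, ranged from 427 TPM in calf 5 to 1839 TPM in calf 2, with a median of 560.4 TPM, and BOLA-DRA, a class II chain, from 276 TPM in calf 5 to 1263 TPM in calf 2. All 8 class II genes and 7 of 10 class I genes were variable, against the same 10.1% of all genes. Calves 5 and 6 were low in the same lists, and for the Kupffer list they were at -0.78 and -0.90. Without calf 2 the ratios were 2.46 for C1QA, 3.01 for C1QB, 2.90 for C1QC, 3.23 for CD5L, 2.19 for CD74 and 2.38 for BOLA-DRA, so that the calls of C1QA, C1QC, CD74 and BOLA-DRA rested on that calf. By list, 8 of 13 Kupffer cell markers, 2 of 8 class II genes and 3 of 10 class I genes were variable without calf 2. Over all genes without calf 2 it was 371 of 5705. Cell cycle genes were also highest in calf 2, at 0.98, where UBE2C, of mitotic exit, was at 43.5 TPM against at most 21.8 TPM elsewhere. The part of immune cell number in these values was not tested.

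Interferon-stimulated genes had another order. Of 21 with a mean of at least 10 TPM, 13 were variable, against 10.1% of all genes. Without calf 2 it was 10 of 20, against 371 of all 5705 genes. The list was at 0.73 in calf 2 and 0.70 in calf 4, and at -0.70 and -0.62 in calves 5 and 6. With median-ratio scaling calf 4 was the higher of the first pair, at 0.74 against 0.59. CXCL9, a chemokine that interferon gamma induces, ranged from 9.93 TPM in calf 6 to 385 TPM in calf 2, with a median of 23.4 TPM. IFI27 was highest in calf 4, at 757 TPM, and next in calf 7, at 679.5 TPM, while calf 2 was at 319 TPM. ISG15, the ubiquitin-like modifier that type I interferon induces, was at 290.4 TPM in calf 4 and at most 132 TPM elsewhere. IFI6 ranged from 90.4 TPM in calf 6 to 493 TPM in calf 1, with a median of 234 TPM. Without calf 4 the ratio of ISG15 was 1.62, and without calf 2 that of CXCL9 was 9.42. Calf 4 had a T and NK cell list level of -0.01, near its mean over all calves.

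The fatty acid oxidation list was highest in calf 7 on both scales, and several genes of lipid metabolism had their highest value there. APOA4, an apolipoprotein of triglyceride-rich particles, ranged from 193 TPM in calf 5 to 4974 TPM in calf 7, with a median of 517 TPM, with calves 1 and 4 next at 1791 and 1344 TPM. ELOVL5, an elongase of polyunsaturated fatty acids, ranged from 39.6 TPM in calf 5 to 349 TPM in calf 7, with a median of 86.8 TPM. ACSL1, which activates long-chain fatty acids, ranged from 84.0 TPM in calf 5 to 407 TPM in calf 7, with a median of 159 TPM, and CYP4A11, an omega-hydroxylase of fatty acids, from 235 TPM in calf 6 to 1245 TPM in calf 7, with a median of 359 TPM. PDK4, which holds pyruvate back from oxidation, ranged from 12.8 TPM in calf 5 to 65.5 TPM in calf 7, and CREB3L3, a fasting-responsive transcription factor of liver, from 58.7 TPM in calf 5 to 255 TPM in calf 7. The level of the list was 0.54 in calf 7 and 0.27 in calf 1, and lowest in calf 5, at -0.34. With median-ratio scaling calf 1 was at 0.01 and calf 2 was the lowest, at -0.39, while calf 7 was still highest, at 0.57. Of its 27 genes 5 were variable and 6 steady, against 10.1% and 35.1% of all genes.

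Without calf 7, the ratios were 9.23 for APOA4 and 3.94 for ELOVL5, and those of ACSL1, CYP4A11, PDK4 and CREB3L3 were 2.87, 2.21, 2.69 and 2.36. The glycolysis and gluconeogenesis list was also highest in calf 7, at 0.40, where LDHA reached 385 TPM. GLS2, the liver glutaminase, ranged from 16.4 TPM in calf 6 to 68.2 TPM in calf 7, with a median of 60.2 TPM. GOT1, cytosolic aspartate aminotransferase, ranged from 18.9 TPM in calf 6 to 80.3 TPM in calf 7, and without calf 7 its ratio was 2.88. Calves 1 and 7 were thus the lowest 2 in HP and SAA2 and the highest 2 in APOA4, and 54 variable genes, 9.17%, had these 2 calves highest, against 14.4% of all genes.

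Genes of cholesterol synthesis formed a separate group. Of 21 with a mean of at least 10 TPM, 9 were variable and 1 steady, against 10.1% and 35.1% of all genes. The level of the list ran from 0.80 in calf 6 to -0.73 in calf 4, and these calves were also at the ends with median-ratio scaling. SQLE, squalene epoxidase, ranged from 8.14 TPM in calf 4 to 82.6 TPM in calf 6, with a median of 28.7 TPM, and MSMO1, a sterol demethylase, from 59.5 TPM in calf 4 to 378 TPM in calf 6, with a median of 247 TPM. HMGCS1, at the start of the mevalonate pathway, ranged from 7.21 TPM in calf 4 to 63.3 TPM in calf 6, with a median of 14.8 TPM. FDPS, which makes farnesyl diphosphate, ranged from 23.2 TPM in calf 7 to 129.6 TPM in calf 6, with a median of 58.8 TPM. SC5D, the most abundant member, had a ratio of 1.77, and PMVK, phosphomevalonate kinase, was steady at 31.4 ± 3.93 TPM, although not with median-ratio scaling, where its ratio was 1.70. CYP7A1, the rate-limiting enzyme that turns cholesterol into bile acids, ranged from 6.31 TPM in calf 4 to 54.1 TPM in calf 3, with a median of 28.8 TPM, and calf 4 was lowest in it as in SQLE and MSMO1. FADS2, the delta-6 desaturase, was lowest in calf 4 too and ranged from 0.410 TPM in calf 4 to 36.5 TPM in calf 1, with a median of 13.1 TPM. Leaving out the calf that mattered most, the ratios were 4.69 without calf 6 for SQLE, 3.85 without calf 6 for HMGCS1, 4.08 without calf 4 for MSMO1, 3.5 without calf 6 for FDPS, 4.72 without calf 4 for CYP7A1 and 6.01 without calf 4 for FADS2.

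The lists of phase I and phase II enzymes were both lowest in calf 4, at -0.42 and -0.31, and with median-ratio scaling at -0.38 and -0.28, where calf 2 was the lowest in the phase I list, at -0.40. CYP2B6, a cytochrome P450 that the receptor NR1I3 induces, was at 129 TPM in calf 1, 25.8 TPM in calf 7, 0.240 TPM in calf 4 and listed at 0 in calf 6. The receptor itself, NR1I3, ranged from 66.4 TPM in calf 2 to 140.2 TPM in calf 7. GSTO1, an omega-class glutathione transferase, was at 0.150 TPM in calf 4 and between 12.2 and 32.7 TPM in the others. GLYAT, which joins benzoate to glycine, was at 416 TPM in calf 4 and at least 763 TPM in the rest. CA3, a carbonic anhydrase, ranged from 18.7 TPM in calf 4 to 426 TPM in calf 1, with a median of 208 TPM, with calves 2, 4 and 6 all under 44.0 TPM and the other 4 at least at 208 TPM. RGS2, a regulator of G-protein signalling, ranged from 0.320 TPM in calf 4 to 40.1 TPM in calf 2, with a median of 15.1 TPM, with calves 3 and 4 both under 1 TPM. SEC14L6 was highest in calf 4, at 48.7 TPM, against 0.770 TPM in calf 1. GSTA1, TXN and FTL had their highest values in calf 5. TXN, thioredoxin, was at 725 TPM there and at most 391 TPM in the others, and FTL at 8519.7 TPM. Leaving out the calf that mattered most, the ratios were 26.8 without calf 1 for CYP2B6, 2.56 without calf 4 for GSTO1, 14.2 without calf 4 for CA3, 24.0 without calf 4 for RGS2 and 2.76 without calf 7 for GSTA1.

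Of 8 iron genes with a mean of at least 10 TPM 2 were variable, and of 4 genes of the foetal liver 2, against 10.1% of all genes. HAMP, hepcidin, the hormone that blocks iron export, ranged from 61.4 TPM in calf 6 to 499.9 TPM in calf 7, with a median of 259 TPM. SLC40A1, the exporter ferroportin that hepcidin acts on, ranged from 63.2 TPM in calf 6 to 188 TPM in calf 2, and both were lowest in calf 6. TFR2, an iron sensor of hepatocytes, was steady at 87.2 ± 8.22 TPM, and its ratio was 1.57 with median-ratio scaling. GPC3, a glypican abundant in foetal liver, ranged from 131 TPM in calf 7 to 1127 TPM in calf 4, with a median of 472 TPM, and DLK1, a foetal hepatoblast protein, from 10.9 TPM in calf 7 to 99.7 TPM in calf 6, with a median of 15.6 TPM. Both were lowest in calf 7 and high in calves 4, 5 and 6. Leaving out the calf that mattered most, the ratios were 2.82 without calf 6 for HAMP, 5.12 without calf 7 for GPC3 and 4.73 without calf 6 for DLK1.

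Variable genes lay beside each other on the chromosomes. Of the 580 variable genes placed on the RefSeq assembly ARS-UCD2.0, 210 (36.2%) had a variable gene as the next expressed gene on either side, against 18.0% of all 5809 genes placed. There were 28 runs of at least 3 variable genes in a row. Neighbours and runs were not counted again without calf 2, and 207 of the 589 variable calls were lost without that calf. The longest, on chromosome 4, held 14 genes, 11 of them highest in calf 2, among which were GIMAP8, GIMAP4, GIMAP6, GIMAP1 and GIMAP5, GTPases of lymphocytes. Its members TMEM176A and TMEM176B were highest in calf 5. A run on chromosome 29 held LDHA, SAA3, LOC104968478 and SAA2, of which LDHA was highest in calf 7 and the serum amyloids in calves 4 and 5. Others held SERPINA3, SERPINA3-7 and SERPINA3-3 on chromosome 21, all highest in calf 4 and lowest in calf 1, and S100A2, S100A4, S100A8, S100A12 and S100A9 on chromosome 3. LOC784932, the fourth gene of the run on chromosome 21, ranged from 96.1 TPM in calf 2 to 6716 TPM in calf 4, with a median of 427 TPM and had the second widest spread of the 169 genes above 1000 TPM, by the SD of log2(TPM + 1). In calf 6 it was at 2825 TPM and in the other 5 calves at most at 1019 TPM. Without calf 4 its ratio was 29.1. The run with MT1A on chromosome 18 had calf 1 lowest in 3 of its 4 genes. Without the calf that mattered most, the ratios of SERPINA3, SERPINA3-7, SERPINA3-3, S100A8, S100A12, GIMAP8, GIMAP1 and MT1A were under 3. Such families share sequence, and how far shared reads tie their values together was not tested.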

How the data were processed

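Liver RNA of 7 control calves, 1 library per calf, was described, and the 7 libraries of supplemented calves were not used here. Per the labels' protocols, poly(A) RNA was sequenced on a DNBSEQ instrument and reads were filtered with SOAPnuke (1.5.6), which removed reads with over 5% unknown bases or over 20% of bases under quality 15. The deposited table gives TPM per transcript, to 2 decimals. The submitters' processing notes name RSEM (1.3.1) and DESeq2 (1.4.5). The aligner was not given in the sources used here, nor was the build. The table holds no counts, so read depth is unknown and no interval that needs it is given.

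TPM was summed per gene ID with Python 3.11.15, pandas 2.3.3 and numpy 2.4.6, and plotted with matplotlib 3.10.9. Symbols and the order of genes along chromosomes came from a RefSeq gene table (ARS-UCD2.0), which matched 98.8% of IDs. No coordinates and no sequences are printed. Steady and variable calls used genes that averaged 10 TPM or more, with a pseudocount of 1 TPM. The steps were checked on simulated data with noise far below the real spread between calves and large changes in single calves. That check bears on the code, and not on how the calls behave at the real spread. The alternatives of the closing section were transcripts in place of genes, other pseudocounts, minimum levels and ratio limits, and median-ratio or quantile scaling. Scaling without the leading 20 genes, shares without ALB and leaving out each calf were also used. Not every value under them is printed. The calls per list without calf 2 and with median-ratio scaling, and the order of calves in HP with median-ratio scaling, were added after the data were seen. With 1 group there was no test between groups and no p-value. The labels name no batch. Some genes of the lists are not reported here.

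The calves and the 51 gene lists (1113 entries, of which 1064 matched and 1001 were distinct genes) were chosen with earlier results of these data known. Genes were named by rule: the 30 of highest mean, the 15 most variable with and without their farthest calf and the 15 steadiest (genes named by a LOC number aside), the 4 leading and the most and least variable of each list, and the cell type markers, of which those the text turns on are printed. Other genes were picked after their values were seen: those of fatty acid and cholesterol synthesis, propionate use and gluconeogenesis beyond the leading ones, the reference genes, IGF1, IGFALS, AFP, HAVCR1, OTC, BDH1, ACSL1, CYP4A11, LBP, ITIH4, SERPINA3, CFHR5, LOC784932, and the GIMAP, TMEM176 and S100 genes beside other variable genes.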

Additional observations from a re-analysis of the deposited data

Results flagged for a closer look

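One calf lay apart from the other 6 by Dixon's criterion for the values below. Chance alone marks about 1 in 20 groups of 7 in this way, and 212 named genes and the levels of 49 lists were looked at.

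In calf 4, TTR was low at 3322 TPM, OTC at 71.2 TPM, GLYAT at 416 TPM, RARRES2 at 2453 TPM, LOC511240 at 4973 TPM and GSTO1 at 0.150 TPM, while ISG15 was high at 290.4 TPM and MTTP at 92.7 TPM. In calf 5, TXN was high at 725 TPM and FTL at 8519.7 TPM. In calf 2, CD3G was high at 45.0 TPM, and the list of B and plasma cell markers at 1.17, as the mean of log2(TPM + 1) relative to its mean over the calves. MESD, one of the steadiest genes, was at 68.5 TPM in calf 3. ADIPOQ was above 0 in 1 calf alone, calf 3, at 0.04 TPM, and MYH2 in calf 7 alone, at 0.03 TPM, both near the lowest values that the table can show.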

How the results depend on the processing

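With 7 calves, the number of animals and not only the reading of each library limits the spreads, and the unknown read depth means that low genes cannot be given a counting error. The share of TPM in the leading 20 genes kept within the spread between calves, from 26.0% to 27.1% when 1 calf was left out and 26.1% over transcripts. The secreted protein share ran from 35.4% to 36.6% without 1 calf, and from 36.1% it became 32.8% of the rest when ALB was left out. The enzyme share ran from 6.76% to 7.10% without 1 calf, and was 7.29% of the rest when ALB was left out. Genes with a mean of at least 1 TPM numbered 11989 to 12121 without 1 calf, against 19476 transcripts when the values were not summed per gene. With a minimum mean of 0.5 TPM there were 13042 genes and with one of 5 TPM 8275, while 11020 genes had at least 1 TPM in each library.

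The numbers of steady and variable genes depend on the limits chosen. The 2043 steady genes became 3596 with a minimum mean of 1 TPM, 596 with one of 50 TPM, 502 with a ratio under 1.3 and 3602 with a ratio under 1.75. The 589 variable genes became 1265 with a minimum mean of 1 TPM, 210 with one of 50 TPM, 1438 with a ratio of at least 2, 346 with a ratio of at least 4, and 908 over transcripts. Without 1 calf, steady genes numbered 2179 to 2539 and variable genes 371 (without calf 2) to 582. With other scalings and pseudocounts both numbers were within 1.5 times those above.

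With median-ratio scaling, of 343 levels of a list in a calf, 289 moved by less than the spread between calves. In 5 cases a level larger in size than the SD of its list between calves changed sign. These were the propionate, bile acid, iron and hepatocyte transcription factor lists in calf 1, to -0.080, -0.056, -0.060 and -0.026. The fifth was the proteasome list in calf 2, to -0.013. Smaller levels changed sign in further cases, among them the hepatocyte marker list in calf 1, from 0.19 to -0.08. The cause of each change under the scalings was not tested. No paired analysis was possible because 1 group was described and nothing was compared between groups.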

Other observations

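Beyond the lists described above, HAVCR1, known from kidney and lymphocytes as a receptor for phosphatidylserine, was among the 50 most abundant genes of these livers. It ranged from 2089 TPM in calf 5 to 3990.3 TPM in calf 4, with a median of 3632 TPM, and all 7 calves lay within a ratio of 1.91. This gene was picked after its values were seen.

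The circadian clock sets the level of a number of liver genes by the time of day, which the labels do not give for the slaughter. DBP, a clock-driven transcription factor, ranged from 34.5 TPM in calf 4 to 78.7 TPM in calf 1, with a median of 44.6 TPM, and PER1, a repressor of the clock, from 19 TPM in calf 4 to 53.9 TPM in calf 1, with a median of 26.7 TPM, both highest in calf 1. None of the 6 genes of that phase with a mean of at least 10 TPM was variable, against 10.1% of all genes. Of the 27 immediate early genes, which respond to stimuli within minutes, 14 had a mean of at least 10 TPM. Of those 2 were variable, a share near that of all genes. The level of the list was highest in calf 2, at 0.42, and lowest in calf 7, at -0.37. In TPM, the list of genes that are periportal in mouse liver was highest in calf 7, at 0.25, and lowest in calf 5, at -0.24. The pericentral list was highest in calf 6, at 0.19, and lowest in calf 4, at -0.30. HBB, a haemoglobin chain of red cells, ranged from 1.36 TPM in calf 4 to 29.0 TPM in calf 2, with a median of 9.52 TPM.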
